A study of Rattus norvegicus with 17 samples.

Results

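A set of 10 genes of heme and iron handling was examined in rat liver after bile duct ligation, with and without ghrelin. They were Alas1 and Alas2 (heme synthesis), Hbb (beta-globin), Hmox1 and Blvrb (heme breakdown), Tfrc and Tf (iron uptake), Slc40a1 and Cp (iron export) and Hamp (hepcidin). A gene was measured where the platform annotation gave a probe set that symbol and no other. This rule found 14 probe sets for 9 of the 10 genes, among 31042 probe sets that were not controls. Both probe sets that list Tf also list Srprb, so Tf had no probe set of its own.

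Liver RNA from 17 rats was hybridized to Affymetrix Rat Genome 230 2.0 arrays, 1 array per rat. In the ligated ghrelin group 5 rats were given recombinant ghrelin (10 µg/kg/day) after bile duct ligation. In the ligated saline group 6 rats were ligated and given saline, and in the sham group another 6 were given saline after an incision of the abdomen alone. Infusion was subcutaneous, from osmotic pumps. Surgery took place at week 7, and rats were killed for liver RNA at week 9. Ligation blocks the outflow of bile and leads to cholestasis and fibrosis, and ghrelin is a stomach peptide hormone that acts on the growth hormone secretagogue receptor. No group analysed here received ghrelin without ligation. The labels used give neither strain nor sex, and the p-values measure the spread between these rats.

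Liver cells make heme from glycine and succinyl-CoA, with Alas1 at the first, rate-limiting step, and much of it goes into cytochromes P450. Alas2 is the form of that enzyme used by developing red cells, where heme is built into hemoglobin. Liver macrophages take up aged red cells and open the heme ring with Hmox1, which releases iron, carbon monoxide and biliverdin. Hepatocytes take up iron, store it, and secrete hepcidin, the peptide that causes ferroportin (Slc40a1), the only known cellular iron exporter, to be degraded. Hepcidin transcription is known to respond to iron through bone morphogenetic protein and SMAD signals, and to inflammation through STAT3.

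Promoters of Hamp and Tfrc are printed. Results for known regulators of Hamp are given below. The regulators of Tfrc given below bind its messenger RNA, not its promoter. Promoter windows from RefSeq (GRCr8) were at hand for 9 of the 10 genes, all but Hmox1. Each window searched is the 250 bases upstream of the annotated start, read 5′ to 3′ on the gene's strand. The Hamp window lies at chr1:95300272-95300521 on the minus strand and the Tfrc window at chr11:81690319-81690568 on the minus strand. Capitals mark motif matches found on either strand.
Hamp: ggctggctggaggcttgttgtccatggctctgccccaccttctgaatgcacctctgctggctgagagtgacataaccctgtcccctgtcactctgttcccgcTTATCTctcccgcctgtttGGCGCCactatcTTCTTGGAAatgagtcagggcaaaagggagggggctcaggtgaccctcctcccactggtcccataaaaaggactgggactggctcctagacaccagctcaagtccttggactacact
Tfrc: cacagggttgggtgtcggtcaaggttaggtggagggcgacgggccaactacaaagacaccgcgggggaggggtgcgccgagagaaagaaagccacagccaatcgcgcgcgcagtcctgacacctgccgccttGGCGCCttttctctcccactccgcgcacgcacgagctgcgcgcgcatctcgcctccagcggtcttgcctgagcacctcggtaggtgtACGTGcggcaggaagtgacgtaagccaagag
In the Hamp window TTATCT, the GATA motif AGATAA read on the other strand, lies 148 to 143 bases before the start, the bone morphogenetic protein response element GGCGCC lies at 129 to 124, and TTCTTGGAA, a match to the STAT motif TTCNNNGAA, lies at 117 to 109. In the Tfrc window GGCGCC lies 118 to 113 bases before the start and ACGTG, the core of the hypoxia response element, at 31 to 27. Among all 33469 promoter windows of this length, AGATAA was present in 10.3%, TTCNNNGAA in 7.67%, GGCGCC in 8.69% and ACGTG in 16.6%. Of the 9 windows, AGATAA was in 2 (Hamp and Alas2), TTCNNNGAA in 2 (Hamp and Alas1), GGCGCC in 2 (Hamp and Tfrc) and ACGTG in 1 (Tfrc). The antioxidant response element core TGACNNNGC (10.1% of all windows) and the E-box CACGTG (5.59%, and it contains ACGTG) were in 0 of the 9 windows. The Hmox1 promoter was not searched. The window given for Alas2 starts inside the gene's own annotated span and is not shown.

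The liver label was checked first. All 11 hepatocyte markers measured (Alb, Ttr, Apob and others) lay above the filter level on every array. Their summed intensity was 265583 to 286490 in ligated ghrelin, 250868 to 283200 in ligated saline and 270607 to 294504 in sham livers. Cells other than hepatocytes moved with ligation. Macrophage markers summed to 24890 to 35058 in ligated ghrelin, 30166 to 45069 in ligated saline and 13141 to 21359 in sham livers. Bile duct markers summed to 7442 to 11985 in ligated ghrelin, 5998 to 18823 in ligated saline and 387 to 725 in sham livers, with Cftr, Sctr, Cldn4 and Cldn7 above the filter level on 0 of 6 sham arrays. Stellate cell and fibroblast markers gave 16592 to 22738 in ligated ghrelin, 20265 to 40630 in ligated saline and 3789 to 5082 in sham livers. In bulk tissue, fewer cells of a type and less RNA per cell cannot be told apart, and the part of these cells in the changes below was not tested. Correlations between arrays of 1 group ranged between 0.965 and 0.985, and the median intensity per array was 15.4 to 16.4 in ligated ghrelin, 16.1 to 17.5 in ligated saline and 14.2 to 14.7 in sham livers.

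The first comparison, ligated saline with sham, addresses what ligation did to these genes. Of the 9 measured genes, 8 passed limma's test at an adjusted p under 0.05. Hmox1, Tfrc, Slc40a1 and Cp rose, and Alas1, Alas2, Hbb and Blvrb fell, while Hamp did not pass. The response to ligation was broad, since 64.7% of all 9736 genes passed (37.5% higher, 27.2% lower), so 8 of 9 is read against that share. In the same 8 genes the 2 groups did not overlap, as was so for 44.5% of all genes. The median change of all genes was 0.07 on the log2 scale. Equal array medians or quantile normalization put the median over all probe sets kept at -0.15 or -0.11, against 0.04 as deposited. The split of 5468 higher and 4357 lower probe sets as deposited became 4127 and 6456 with equal medians and 4508 and 6221 after quantile normalization. The 8 calls and their directions held under both scalings.

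**Figure D1:**
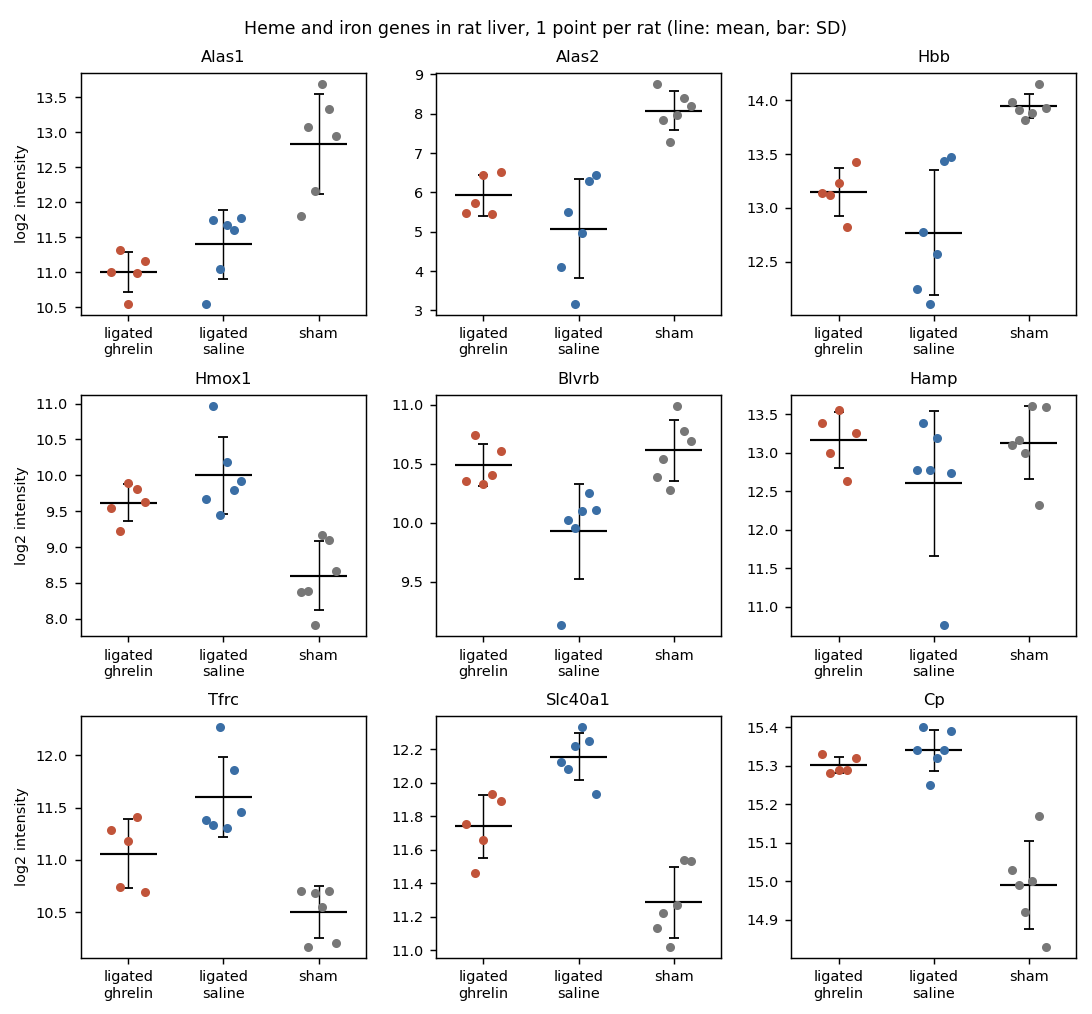
Log2 intensity of the representative probe set of each of the 9 measured genes, with 1 point per rat, a line at the group mean and a bar of 1 SD, for ligated ghrelin (5 rats), ligated saline (6 rats) and sham (6 rats). The axes do not start at 0 and differ between panels. The ligated saline arrays lie apart from the sham arrays in every panel except Hamp, where 1 ligated saline array is at 10.76.

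Genes of heme synthesis fell together. Alas1 (probe set 1367982_at) ran between 10.55 and 11.78 log2 units (median 11.63) in the 6 ligated saline livers and between 11.80 and 13.69 (median 13.01) in the 6 sham livers. The groups did not overlap but nearly met, and sham livers spread more (SD 0.72) than ligated saline livers (SD 0.494). The change was -1.44 ± 0.293 (SE), or 2.71-fold lower, with an adjusted p of 0.00044. Alas2 (1367985_at) ran between 3.17 and 6.43 (median 5.24) in ligated saline livers and between 7.29 and 8.75 (median 8.08) in sham livers. No ligated saline array reached the lowest sham array, and ligated saline 3, at 3.17, was below the filter level of 3.95. Alas2 fell by 2.99 on the log2 scale (SE 0.461, adjusted p 3.04e-05), the largest change among the 9 genes.

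Most genes listed for the pathway, enzymes and transporters, moved the same way. Of 11 measured genes of heme synthesis, 10 fell, Alas1 and Alas2 among them, and 0 rose. Abcb10, a mitochondrial transporter, was not called (-0.17 ± 0.39). The share lower among all genes was 27.2%, and the list's median change was -1.04 against 0.07 for all genes. Alad, which joins the first precursors into a pyrrole ring, fell by 1.28 on the log2 scale (SE 0.0924, adjusted p 9.36e-09). Ppox and Fech, the last oxidation and the insertion of iron, fell by 1.30 (SE 0.148) and 1.04 (SE 0.088). Slc25a38, which brings glycine into mitochondria, fell by 1.12 (SE 0.162), and Abcb6 by 0.75 (SE 0.0884). Changes were smaller for Uros at -0.68, Urod at -0.49 and Cpox at -0.26. With the higher of its 2 probe sets taken, Uros was above the filter level on 4 of 6 ligated saline and 6 of 6 sham arrays. Summed intensity over the 11 genes was 7570 to 10189 in ligated saline livers and 15499 to 24785 in sham livers, with no overlap. Alas1, which is in this sum, had a mean intensity of 2820 in ligated saline and 8050 in sham livers. Over the same arrays, hepatocyte markers had a median change of -0.13, with 4 of 11 lower and 0 higher. Among the 4 were Hnf4a (-0.79) and Asgr1 (-0.54), and among the 7 not called Alb (-0.045) and Apoa1 (-0.13). The 11 markers summed to at least 250868 on every array, so some lie high on the scale, where differences can be compressed.

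**Figure D2:**
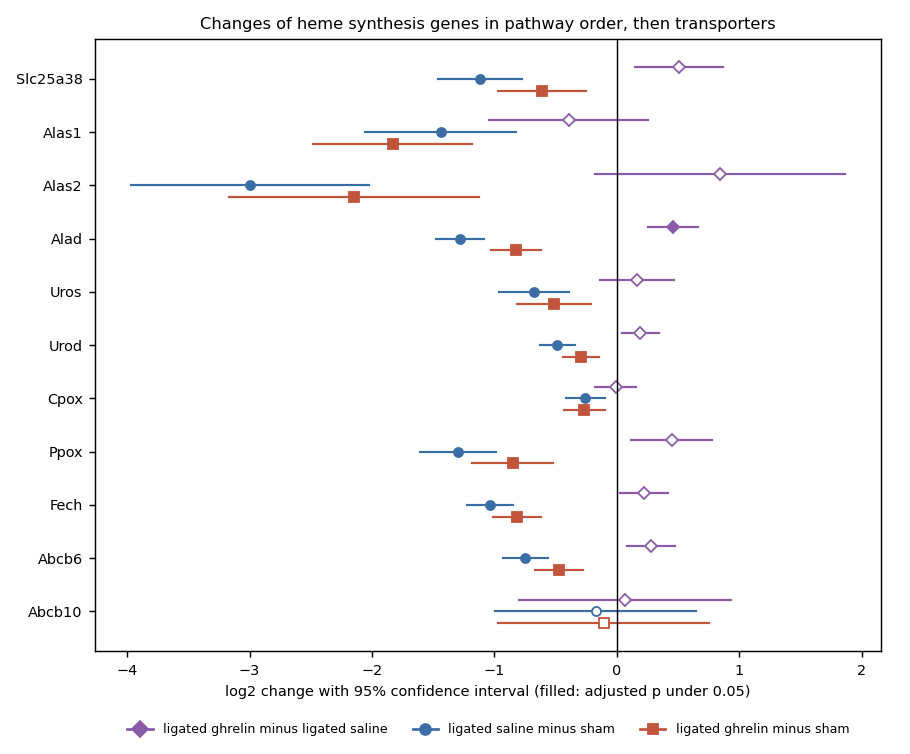
Log2 changes of the 11 measured genes of heme synthesis, enzymes in pathway order between the glycine carrier Slc25a38 and the transporters Abcb6 and Abcb10, with 95% confidence intervals from limma (diamonds, ligated ghrelin minus ligated saline; circles, ligated saline minus sham; squares, ligated ghrelin minus sham). Filled symbols passed at an adjusted p under 0.05, as 10 of 11 did for both comparisons with sham, all lower, and Alad alone did for ghrelin against saline.

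Many of the enzymes that carry heme were lower too. Of 11 measured genes for heme-dependent liver enzymes and their partners, 8 fell, 0 rose and 3 were not called (72.7% called against 64.7% of all genes), with a median change of -0.92. Cyp8b1, of bile acid synthesis, fell by 3.81 on the log2 scale (SE 0.582), and the P450s Cyp3a2 (-2.21 ± 0.483) and Cyp1a2 (-1.46 ± 0.368) fell as well. Cyp2c11, the male-typical P450 of rat liver, fell by 7.77 (SE 0.845), with 1 ligated saline array below the filter level. Catalase (Cat) fell by 0.51 and tryptophan dioxygenase (Tdo2) by 1.34. Cyp2e1 (-0.04 ± 0.183), Cyp4a1 (-0.29 ± 0.239) and Cyp7a1 (0.30 ± 0.233) were not called.

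Beta-globin RNA, carried mainly by young red cells, was lower in ligated livers. Hbb (1367553_x_at) ran between 12.11 and 13.47 log2 units (median 12.68) in ligated saline livers and between 13.82 and 14.15 (median 13.92) in sham livers. Every sham array lay above every ligated array, with an SD of 0.582 in ligated saline and 0.113 in sham livers. Hbb fell by 1.17 (SE 0.204), or 2.26-fold, with an adjusted p of 0.000102. The rat genome holds near-identical beta-globin copies beside Hbb, so the value is uncertain as to which copy was measured.

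The list of red cell genes includes Hbb and Alas2. Of 19 listed red cell genes on the array, 8 were kept (87.5% called against 64.7% of all genes). Of these, 5 fell, Hbb and Alas2 among them, and 2 rose. Ahsp, the alpha-globin chaperone, was not called (-0.47 ± 0.243, and above the filter level on 1 of 6 ligated saline and 6 of 6 sham arrays). Nfe2, a factor of red cell and platelet precursors, fell by 1.67 on the log2 scale (SE 0.401), Bpgm by 0.56 (SE 0.0987) and Epb41 by 0.41 (SE 0.129). Car2 (1.93 ± 0.275) and Gypc (0.51 ± 0.111) rose, and both are also known from other cell types. Slc4a1, Epb42, Klf1, Gata1, Epor and the other red cell genes not kept lay below the filter level on every ligated saline array and on at least 4 of 6 sham arrays. Summed intensity of the 8 genes was 8175 to 14103 in ligated saline livers and 16946 to 21010 in sham livers. Most of that sum is Hbb, with a mean intensity of 7490 in ligated saline and 15800 in sham livers.

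Hbb and Alas2 varied together between rats of the same treatment. Across the 11 ligated arrays, after each group's mean was subtracted, Pearson's r was 0.95 (permutation p 2e-05, adjusted p 0.00016 over 8 relations computed) and Spearman's rho 0.96 (permutation p 2e-05, adjusted p 0.00016). Without the 2 arrays farthest from the median of Hbb, r was 0.92. It was 0.96 within the 6 ligated saline arrays alone and 0.82 within the 5 ligated ghrelin arrays. In the 6 sham arrays r was 0.72 (exact permutation p 0.114, adjusted p 0.228), with rho 0.89 (exact permutation p 0.0333, adjusted p 0.0888) and r 0.89 without the 2 farthest arrays. Ligated saline 3 and ligated saline 1 were the lowest on both genes, and ligated saline 5 and 6 were the highest of their group on both. Both probe sets are read from the same arrays.

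**Figure D3:**
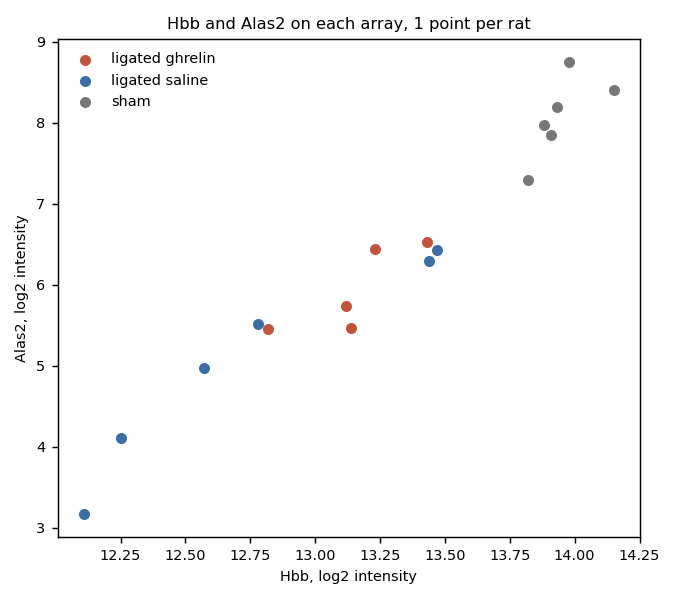
Log2 intensity of Hbb (horizontal axis) against Alas2 (vertical axis), with 1 point per rat, colored by group (ligated ghrelin, ligated saline, sham). Ligated arrays run up together between ligated saline 3, at 12.11 and 3.17, and ligated saline 6, at 13.47 and 6.43, and all 6 sham arrays lie above and to the right of them.

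Heme breakdown genes moved in opposite directions. Hmox1 (1370080_at), the inducible heme oxygenase, ran between 9.45 and 10.97 log2 units (median 9.86) in ligated saline livers and between 7.91 and 9.17 (median 8.53) in sham livers. All 6 ligated saline arrays lay above all 6 sham arrays, with ligated saline 2 the highest. The change was 1.40 ± 0.244, or 2.64-fold, with an adjusted p of 0.000106. Blvrb (1392539_at), a biliverdin and flavin reductase that is abundant in red cells, ran between 9.13 and 10.25 (median 10.06) in ligated saline livers and between 10.28 and 10.99 (median 10.62) in sham livers. The highest ligated saline array and the lowest sham array were nearly level. Blvrb fell by 0.69 on the log2 scale (SE 0.168, adjusted p 0.00201), and by 0.53 (SE 0.122, adjusted p 0.00165) without ligated saline 1, the lowest array.

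Of 5 measured heme breakdown genes, 2 rose and 3 fell, beside the 64.7% of all genes called. Hmox2, the constitutive heme oxygenase, fell by 0.95 (SE 0.0984, adjusted p 4.4e-07), and Por, which passes electrons to both heme oxygenases and to P450s, fell by 1.43 (SE 0.229). Blvra, the main biliverdin reductase of adult liver, rose by 0.40 (SE 0.135, adjusted p 0.0172), a call lost with equal array medians (adjusted p 0.188). Hmox1 is a target of the factor Nrf2 and is repressed by Bach1. Of 12 measured genes on the list of that system, 2 rose and 6 fell, with a median change of -0.20. The share called, 66.7%, was near the 64.7% of all genes. Those that rose were Nfe2l2, which encodes Nrf2 (0.95 ± 0.187), and its partner Mafk (0.89 ± 0.138). The glutathione synthesis genes Gclc and Gclm fell by 1.54 (SE 0.167) and 1.37 (SE 0.165), and Nqo1, a widely used Nrf2 target, was not called (0.38 ± 0.317). Of 12 macrophage markers, 9 rose and 1 fell (83.3% called against 64.7% of all genes), with a median change of 1.12. Their part in the Hmox1 change was not tested.

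In the 6 sham livers Hmox1 and Blvrb ran together, with r 0.96 (exact permutation p 0.00694, adjusted p 0.0278), rho 1.0 (exact permutation p 0.00278, adjusted p 0.0111) and r 0.90 without the 2 arrays farthest from the median of Hmox1. Sham 3 was the lowest and sham 4 the highest on both genes. In the 11 ligated arrays r was 0.12 (permutation p 0.694, adjusted p 0.783) and rho -0.20 (permutation p 0.556, adjusted p 0.661). Within the 5 ligated ghrelin arrays r was -0.79, and within the 6 ligated saline arrays 0.28. Differences between these correlations were not tested. Hmox1 with Slc40a1 gave r 0.10 (permutation p 0.783, adjusted p 0.783) and rho 0.19 (permutation p 0.578, adjusted p 0.661) in ligated arrays, with r 0.53 without the 2 farthest. That r was 0.64 within the 5 ligated ghrelin arrays and -0.17 within the 6 ligated saline arrays. In sham arrays r was 0.72 (exact permutation p 0.111, adjusted p 0.228) and rho 0.83 (exact permutation p 0.0583, adjusted p 0.117), with r 0.86 without the 2 farthest.

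Among 11 genes that scavenge or carry heme and hemoglobin, 5 rose and 3 fell (72.7% called against 64.7% of all genes), with a median change of 0.12. Cd163, the macrophage receptor for haptoglobin bound to hemoglobin, rose by 0.89 (SE 0.143), and the heme transporters Slc48a1 and Flvcr2 by 0.75 (SE 0.12) and 1.07 (SE 0.262). Slc46a1, a folate and heme carrier, fell by 3.38 (SE 0.192), or 10.4-fold, and Abcg2, an exporter whose substrates include porphyrins, by 1.86 (SE 0.32). The plasma carriers Hp and Hpx changed by 0.12 each, but the sign turned to -0.07 for both with equal array medians, and the calls were lost in 13 and 10 of 20 settings.

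RNA of the transferrin receptor, which brings transferrin-bound iron into cells, was higher in ligated livers. Tfrc (1388750_at) ran between 11.31 and 12.27 log2 units (median 11.42) in ligated saline livers and between 10.17 and 10.70 (median 10.62) in sham livers. The groups did not overlap, and ligated saline 3 was the highest array. Tfrc rose by 1.10 (SE 0.179, adjusted p 5.31e-05), or 2.14-fold. A second Tfrc probe set, 1371113_a_at, gave 1.09 ± 0.225 (adjusted p 0.000493). Summed intensity of 9 dividing cell markers was 2117 to 7086 in ligated saline and 764 to 990 in sham livers, with Ube2c and Birc5 above the filter level on 0 of 6 sham arrays. Dividing cells are known to carry much transferrin receptor. The part of these cells in the Tfrc change was not tested.

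Transferrin itself could not be read alone. The brighter probe set listed for Srprb and Tf together (1370228_at) averaged 15.68 ± 0.0511 log2 units in ligated saline livers and 15.54 ± 0.0395 in sham livers (SD, n = 6 each), a change of 0.14 ± 0.0517 (adjusted p 0.0266). The dimmer one (1391323_at) gave 0.11 ± 0.223 (adjusted p 0.681). Neither value is attributed to either gene.

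Of 8 measured iron uptake genes, 5 rose and 2 fell (87.5% called against 64.7% of all genes), with a median change of 0.78. Slc11a2, the divalent metal transporter, rose 2.83-fold (adjusted p 1.36e-06) and Steap4, a metalloreductase, by 1.41 (SE 0.204). Lcn2, a siderophore-binding protein of neutrophils and injured epithelium, rose by 6.70 (SE 0.902). The zinc and iron carriers split, with Slc39a14 at 0.46 ± 0.12 and Slc39a8 at -1.41 ± 0.134, both called, the first not with equal array medians. Tfr2, the hepatocyte iron sensor, fell by 0.44 (SE 0.15, adjusted p 0.0185), a call lost after quantile normalization.

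The iron exporter and its ferroxidase partner rose. Slc40a1 (1390412_at) ran between 11.93 and 12.33 log2 units (median 12.17) in ligated saline livers and between 11.02 and 11.54 (median 11.24) in sham livers. The groups stood well apart. Slc40a1 rose by 0.87 (SE 0.107, adjusted p 3.07e-06), or 1.83-fold, and the probe set 1387130_at gave 0.86 ± 0.139 (adjusted p 4.68e-05). The third and dimmest Slc40a1 probe set, 1376972_at, went the other way, between 6.55 and 7.90 (median 7.34) in ligated saline and between 7.40 and 8.08 (median 7.70) in sham livers, which overlap. Its change of -0.41 ± 0.226 was not called (adjusted p 0.123), but it was called lower after quantile normalization (-0.58, adjusted p 0.0406) and with equal array medians (-0.60, adjusted p 0.0298). The mean of the 3 probe sets gave 0.44 ± 0.119 (adjusted p 0.00424). The files do not say which transcript each probe set reads. Macrophages are rich in ferroportin, and the part of the higher macrophage markers in this change was not tested.

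Cp encodes ceruloplasmin, the copper ferroxidase of plasma that helps load exported iron onto transferrin. Its brightest probe set, 1368420_at, ran between 15.25 and 15.40 in ligated saline livers and between 14.83 and 15.17 in sham livers. The groups did not overlap. The change was 0.35 ± 0.061 (adjusted p 0.000106), from levels close to the highest value on any array (15.92), where differences can be compressed. The dimmer 1368418_a_at gave 0.55 ± 0.0813 and the dimmest, 1368419_at, gave 1.39 ± 0.216, both called. Heph, the membrane ferroxidase related to Cp, was above the filter level on 5 of 5 ligated ghrelin, 6 of 6 ligated saline and 0 of 6 sham arrays, so it was kept through the ligated arrays alone and is not counted among the genes that rose. Among 14 acute phase genes, a group that includes Cp, 6 rose and 2 fell (57.1% called against 64.7% of all genes), with a median change of 0.10.

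**Figure D4:**
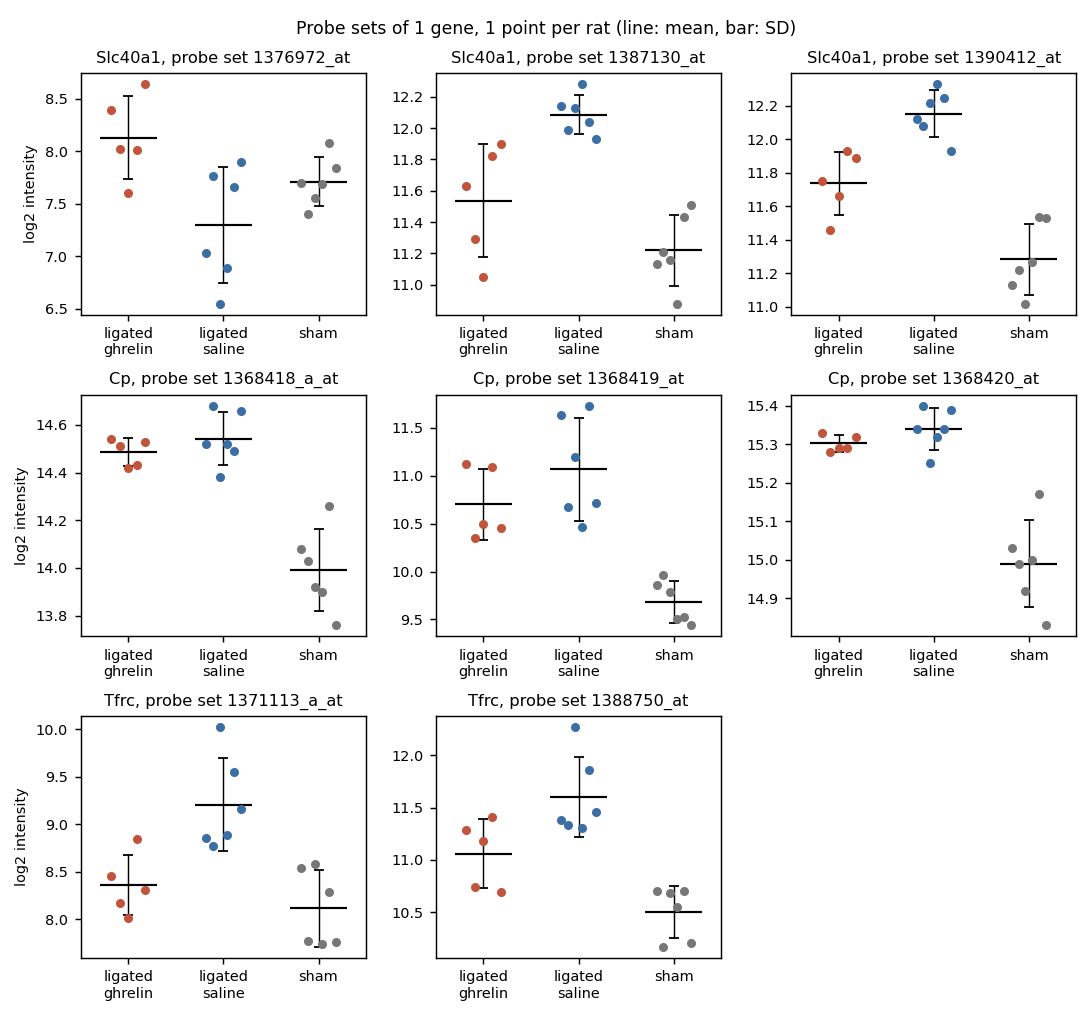
Log2 intensity of every probe set of the 3 genes with more than 1 (Slc40a1, Cp and Tfrc), with 1 point per rat, a line at the mean and a bar of 1 SD, for ligated ghrelin (5 rats), ligated saline (6 rats) and sham (6 rats). The axes do not start at 0. Probe sets of Cp and Tfrc are higher in ligated saline than in sham livers throughout, whereas Slc40a1 1376972_at has its lowest mean, 7.30, in ligated saline livers.

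Hamp (1387396_at), the hepcidin gene, was the 1 measured gene of the 9 that did not pass. It ran between 10.76 and 13.38 log2 units (median 12.78) in ligated saline livers and between 12.32 and 13.61 (median 13.14) in sham livers. The groups overlapped, and ligated saline 5 lay far below all other arrays. The change was -0.53 ± 0.354 (95% interval -1.28 to 0.22, adjusted p 0.205), and -0.16 ± 0.224 (adjusted p 0.558) without ligated saline 5.

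Of 23 measured genes on the list of hepcidin and its regulators, 7 rose, 7 fell and 9 were not called, with a median change of 0.12. The share called, 60.9%, was near the 64.7% of all genes. Among iron-sensing partners, Hfe fell by 0.86 (SE 0.187) and Hjv, the hemojuvelin co-receptor, by 0.67 (SE 0.183), beside Tfr2 above. Bmp6, the iron-responsive ligand, was not called (0.18 ± 0.185), whereas Bmp2 rose by 0.45 (SE 0.132), a call lost with equal array medians (adjusted p 0.0858), and the receptor Bmpr1a by 0.77 (SE 0.127). Of the targets of that signal, Id1 rose by 1.93 (SE 0.261), and Smad7 (0.22 ± 0.152), Smad6 (0.14 ± 0.0813) and Atoh8 (-0.26 ± 0.19) were not called. In the inflammatory branch, Stat3 rose by 0.93 (SE 0.171) and the interleukin 6 receptor Il6r fell by 1.52 (SE 0.192). Cebpa, a liver factor that binds the Hamp promoter in mouse and human cells, fell by 1.61 (SE 0.243). Within groups, Hamp and Id1 gave r 0.40 (permutation p 0.229, adjusted p 0.341) and rho 0.14 (permutation p 0.693, adjusted p 0.693) in ligated arrays. Without the 2 arrays farthest from the median of Hamp, on which the value rests, r was 0.09. It was 0.57 within the 6 ligated saline arrays and -0.40 within the 5 ligated ghrelin arrays. In sham arrays r was 0.57 (exact permutation p 0.256, adjusted p 0.341) and rho 0.66 (exact permutation p 0.175, adjusted p 0.28), with r 0.70 without the 2 farthest.

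Genes of iron storage, sensing and iron-sulfur clusters were measured in small numbers. Ferritin chains were not measured here. Of 3 measured storage genes 2 rose and 0 fell (66.7% called against 64.7% of all genes). The iron chaperones Pcbp1 and Pcbp2 rose by 0.23 (SE 0.0572) and 0.30 (SE 0.0848), calls that were both lost with equal array medians (adjusted p 0.564 and 0.234). Ncoa4, the ferritin receptor of autophagy, was not called (-0.11 ± 0.0698). Of 4 genes of iron sensing, 3 fell and 0 rose (75% called against 64.7% of all genes). Among those that fell were Aco1 and Ireb2, the iron regulatory proteins that bind and stabilize Tfrc messenger RNA, at -0.34 ± 0.0803 and -0.52 ± 0.213. The calls of Ireb2 and of Iscu, the other of the 3, were lost in 8 and 7 of 20 settings. Of 9 genes of iron-sulfur cluster assembly, 5 fell and 0 rose (55.6% called against 64.7% of all genes), among them Glrx5 (-0.95 ± 0.107) and Nfs1 (-0.88 ± 0.103).

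The second comparison, ligated ghrelin with ligated saline, addresses what ghrelin did under ligation. By limma 0 of the 9 genes passed, against 2.34% of all genes (1.76% higher, 0.585% lower). At an unadjusted p under 0.05 there were 3 of the 9 genes (Blvrb, Tfrc and Slc40a1) against 22% of all genes, and 6 of the 14 probe sets against 21.3% of all probe sets. Blvrb and Slc40a1 had groups that did not overlap, as did 4.53% of all genes. The 6 ligated saline arrays serve in both comparisons, so the directions of the 2 sets of changes are not independent, and no overlap between them is given.

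**Figure D5:**
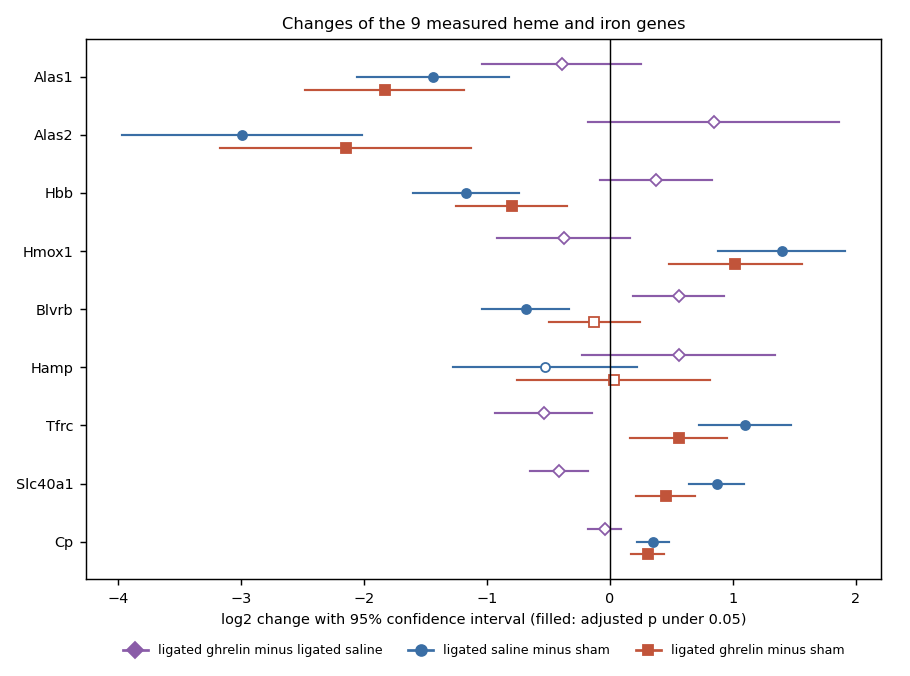
Log2 changes of the 9 measured genes with 95% confidence intervals from limma (diamonds, ligated ghrelin minus ligated saline; circles, ligated saline minus sham; squares, ligated ghrelin minus sham), filled where the adjusted p was under 0.05. No diamond is filled, 8 circles are, and the widest intervals are those of Alas2.

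Blvrb measured 10.35, 10.74, 10.33, 10.40 and 10.61 log2 units in the 5 ligated ghrelin livers, against 9.13 to 10.25 (median 10.06) in ligated saline livers. All ligated ghrelin arrays were above all ligated saline arrays, by a small margin. The difference was 0.56 ± 0.176 (95% interval 0.19 to 0.93, adjusted p 0.0892), and 0.40 ± 0.127 (adjusted p 0.133) without ligated saline 1.

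Slc40a1 (1390412_at) measured 11.75, 11.46, 11.66, 11.93 and 11.89 in ligated ghrelin livers, against 11.93 to 12.33 (median 12.17) in ligated saline livers. The groups met at 11.93 without overlapping. The difference was -0.42 ± 0.112 (95% interval -0.65 to -0.18, adjusted p 0.0577), and -0.55 ± 0.145 (adjusted p 0.0548) at 1387130_at. At 1376972_at the sign was opposite, 0.83 ± 0.237 (adjusted p 0.0662), and it was called higher with equal array medians (0.90, adjusted p 0.0479) and with array weights (0.89, adjusted p 0.0459). The mean of the 3 probe sets gave -0.05 ± 0.125 (adjusted p 0.869). The call at 1390412_at was made under 3 of the settings tried, with quantile normalization (-0.45, adjusted p 0.0439), a trended and robust variance (-0.42, adjusted p 0.0473) and a pseudocount of 16 (-0.41, adjusted p 0.0483), and also without ligated ghrelin 4 (-0.46, adjusted p 0.046). With 1 array left out, the adjusted p ranged between 0.046 and 0.155.

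Tfrc (1388750_at) measured 11.29, 10.74, 11.18, 11.41 and 10.69 in ligated ghrelin livers, against 11.31 to 12.27 (median 11.42) in ligated saline livers. Ligated ghrelin 4 lay inside the range of ligated saline and the other 4 below it. The difference was -0.54 ± 0.187 (95% interval -0.93 to -0.14, adjusted p 0.115), and -0.85 ± 0.236 (adjusted p 0.0608) at 1371113_a_at.

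For the other genes the groups overlapped and the intervals held 0. Alas2 measured 5.47, 5.74, 6.44, 5.45 and 6.53 in ligated ghrelin livers, against 3.17 to 6.43 in ligated saline livers, a difference of 0.85 (95% interval -0.18 to 1.87, adjusted p 0.324). Hbb measured 13.14, 13.12, 13.23, 12.82 and 13.43 in ligated ghrelin livers, against 12.11 to 13.47 in ligated saline livers, a difference of 0.38 (-0.08 to 0.83, adjusted p 0.321). On both genes all ligated ghrelin arrays lay above the median of the ligated saline arrays.

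Hmox1 differed by -0.38 (95% interval -0.92 to 0.16, adjusted p 0.411) and Alas1 by -0.39 (-1.04 to 0.26, adjusted p 0.48). Hamp measured 13.38, 12.99, 13.56, 12.63 and 13.25 in ligated ghrelin livers, against 10.76 to 13.38 in ligated saline livers. Its difference of 0.56 (95% interval -0.23 to 1.34, adjusted p 0.401) was 0.19 ± 0.233 (adjusted p 0.689) without ligated saline 5. Cp differed by -0.04 (-0.18 to 0.10, adjusted p 0.754).

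In the 12 lists of heme and iron genes, Alad alone of 105 measured genes passed for ghrelin, beside 2.34% of all genes. An unadjusted p under 0.05 was found for 26 of the 105 (24.8%, near the 22% of all genes). Alad was 0.46 ± 0.0969 higher (adjusted p 0.0331), the 1 passing of 11 measured genes of heme synthesis. The median difference of those 11 was 0.22 against 0.01 for all genes. The Alad call was lost in 8 of 19 settings, with adjusted p between 0.0105 and 0.0979. Of the genes outside the 9, Hjv (0.67 ± 0.192, adjusted p 0.0678), Heph (-0.97 ± 0.285, adjusted p 0.0734) and the endosomal iron reductase Steap3 (0.77 ± 0.239, adjusted p 0.0867) also did not pass. Counts of 0 passing in either direction held for heme breakdown (5 genes), scavenging (11), red cells (8), iron uptake (8), export (3), storage (3), sensing (4), hepcidin regulation (23), Nrf2 and Bach1 (12), iron-sulfur clusters (9) and heme enzymes (11). At the 2.34% of all genes that passed, lists of these sizes would hold few calls or none.

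The third comparison, ligated ghrelin with sham, holds ligation and ghrelin together. Of the 9 genes 7 passed, with Hmox1, Tfrc, Slc40a1 and Cp higher and Alas1, Alas2 and Hbb lower, against 56.2% of all genes (35% higher, 21.2% lower). In 5 of the 9 the groups did not overlap, as in 39% of all genes. Alas1 measured 11, 11.32, 10.55, 10.99 and 11.16 in ligated ghrelin livers, all below the lowest sham liver at 11.80, a change of -1.83 ± 0.307 (adjusted p 0.000104). Hmox1 measured 9.54, 9.23, 9.89, 9.81 and 9.63, all above the highest sham liver at 9.17, a change of 1.02 ± 0.256 (adjusted p 0.00302).

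Alas2 was lower by 2.15 on the log2 scale (SE 0.483, adjusted p 0.00133) and Hbb by 0.80 (SE 0.214, adjusted p 0.0049). Slc40a1 was higher by 0.45 (SE 0.112, adjusted p 0.00281), Cp by 0.31 (SE 0.064, adjusted p 0.000685) and Tfrc by 0.56 (SE 0.187, adjusted p 0.0185). The other Slc40a1 probe sets did not pass, with 0.32 ± 0.145 (adjusted p 0.078) at 1387130_at and 0.42 ± 0.237 (adjusted p 0.147) at 1376972_at. The second Tfrc probe set, 1371113_a_at, gave 0.24 ± 0.236 (adjusted p 0.404). The Tfrc call was lost without ligated ghrelin 4 (0.47, adjusted p 0.0564) and with the mean of both probe sets (0.40, adjusted p 0.106). Blvrb (-0.13 ± 0.176, 95% interval -0.50 to 0.25, adjusted p 0.569) and Hamp (0.03 ± 0.371, -0.75 to 0.82, adjusted p 0.953) did not pass. Heme synthesis had 10 of 11 genes lower (21.2% of all genes were lower) and a median of -0.61. Iron uptake had 6 of 8 higher (35% of all genes were higher) and a median of 0.86, with Steap3 at 1.15 ± 0.239.

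For 4 of the genes, those most alike in how they varied between rats within groups were ranked by Pearson's r over all 17 arrays after each group's mean was subtracted, as a description with no test. Alas2 ran most closely with Cd7 (0.85), Fndc3a (0.85), the alpha-globin gene Hba-a3 (0.84) and Ddrgk1 (0.81). Hba-a3 changed by -2.27 ± 0.28 in ligated saline against sham livers and by 0.79 ± 0.293 in ligated ghrelin against ligated saline livers (adjusted p 0.139). Hmox1 ran with Cfp, the complement factor properdin (0.85), Zfp385a (0.85), Ilrun (0.85) and Smap2 (0.84). In ligated saline against sham livers Cfp was called higher (0.59 ± 0.158), as Hmox1 was. Zfp385a (-0.84 ± 0.329), Ilrun (-0.43 ± 0.0935) and Smap2 (-0.46 ± 0.0882) were called lower, so likeness within groups need not extend to the change between groups. Tfrc ran with the epithelial integrin Itgb4 (0.89), Yeats2 (0.87), Gse1 (0.86) and Raph1 (0.83), and Hamp with Timmdc1 (0.80), the mitochondrial transhydrogenase Nnt (0.79), Cdk5rap3 (0.77) and Rnf121 (0.76).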

How the data were processed

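The deposited values were probe set intensity values on the linear scale, made by the authors with GCRMA, per the submitters' processing notes. The GCRMA version and its settings were not given in the sources used. Values were taken to log2 with no pseudocount. Groups came from the labels' source names and treatment protocols, and arrays are numbered within a group in order of deposit. Of 31099 probe sets, 57 controls were left out. The filter level was the median of all values (15.5, or 3.95 in log2), and the 15965 probe sets above it on 5 or more arrays entered the tests. In the platform annotation 20826 probe sets had 1 symbol, 436 several and 9780 none listed, and 20758 were matched to RefSeq (GRCr8). A gene is represented by its kept probe set with 1 symbol and the highest mean (9736 genes). Levels of different probe sets are not comparable.

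One model of the 3 groups was fitted in limma 3.58.1 (R 4.3.3, eBayes, 14 residual and 2.54 prior degrees of freedom), with Benjamini-Hochberg adjustment over the kept probe sets. Changes are given ± SE. Relations between genes were tested by permutation in Python 3.11.15. The code of the fit was checked on simulated data with independent noise. Those data held few changed probe sets and no shift between arrays, so they do not test the calls made here. Named genes were the 10 genes with every probe set and any gene of the lists (218 genes, 166 kept). For Hamp, Alas2, Hmox1 and Tfrc the 4 genes outside the 10 that were most alike within groups were also named. The genes and lists were chosen with earlier results of these data known. Alternatives were no filter and a stricter one, quantile normalization, equal array medians, only the groups compared, trended and robust variance, array weights, a pseudocount, the mean of a gene's probe sets and leaving out each array. The number of arrays limits the precision.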

Additional observations from a re-analysis of the deposited data

Results flagged for a closer look

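For 2 probe sets, 1 ligated saline liver stood far from the rest of its group by Dixon's test. Hamp (1387396_at) was at 10.76 log2 units in ligated saline 5, with the nearest other ligated saline liver at 12.73, so that the gap took 0.752 of the group's range. Blvrb (1392539_at) was at 9.13 in ligated saline 1, with the nearest at 9.95, a gap of 0.726 of the range. The test was applied to the highest and lowest array of each group for each of the 14 probe sets, and chance alone gives about 1 such value in 20 groups.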

How the results depend on the processing

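The 8 genes called for ligation stayed called in the same direction in all alternatives run, with any 1 array left out too. For ghrelin against saline, 1 gene instead of 0 was called after quantile normalization, with trended and robust variance and with a pseudocount of 16, and 0 to 1 with an array left out, each time Slc40a1. Over all probe sets the ghrelin count of 355 was 154 without a filter, 542 after quantile normalization, 611 with equal array medians, 118 with only the 2 groups and 564 with the pseudocount, and ranged between 35 and 653 with 1 array left out. Of the 166 list genes, 3 were called for ghrelin (Alad, Col3a1 and Rgs5), beside 2.34% of all genes. That count was 1 without a filter, 0 with only the 2 groups, and 0 to 5 with 1 array left out. Without a filter 22230 probe sets were called for ligation (6035 higher, 16195 lower) against 9825, and 19914 for ligated ghrelin against sham livers, against 8534. With equal array medians the sign turned for Cp in ghrelin against saline (0.028) and for Hamp in ligated ghrelin against sham livers (-0.09). That Hamp value ranged between -0.13 and 0.16 with 1 array left out, with the sign turned without sham 5 (-0.13), ligated ghrelin 1 (-0.02) or ligated ghrelin 3 (-0.07). Neither Hamp nor Cp was called in those comparisons under any setting. For ligation 123 of the 166 list genes were called, beside 64.7% of all genes, and 109 of them kept their call in all settings. The causes of these shifts were not tested. No paired analysis was possible because no number in the titles occurs in more than 1 group. Signal limits Alas2 and Ahsp, which lay near the filter level in ligated livers, and Uros, near it in ligated saline livers. It also limits Cp, near the top of the scale, and the brighter hepatocyte markers.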
